A study of Drosophila melanogaster with 6 samples.

Results

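The odorant binding protein (Obp) genes of *Drosophila melanogaster* encode small secreted carrier proteins. They were taken as every gene whose symbol begins with Obp followed by a number, which gave 51 of the 17606 genes in the expression table. The RNA came from whole larvae at the third larval stage, and each sample pooled 8 larvae whose sex was not given. The mutant animals carried *ecd1*, a temperature-sensitive allele of *ecdysoneless* (*ecd*), whose protein takes part in spliceosome assembly and is needed to make ecdysone, and the controls were *w1118*, a common laboratory strain with a null allele of *white*. Larvae of both genotypes were raised for 10 days at 18 °C, where *ecd1* animals are viable, and then kept for 2 days at 29 °C, where the function of Ecd is lost. There were 3 replicate libraries of each genotype, and no unshifted larvae were compared here.

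Obp proteins bind small hydrophobic molecules in aqueous fluids. In the antenna they are made by the support cells of sensory hairs and fill the lymph around the dendrites of the olfactory neurons, where they take up odorants and pheromones before these meet a receptor. Many members are made elsewhere, in taste organs, in the male reproductive tract, in fat body and hemolymph or in glia, so the family is also read as a set of general carriers. By their cysteine pattern the members fall into Classic, Plus-C (extra cysteines), Minus-C (fewer cysteines) and Dimer (a doubled domain) proteins.

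The 51 genes were compact and clustered. They lay in 28 loci when neighbours no more than 20 kb apart were joined, and 10 loci with several members held 33 of the genes. Chromosome arm 2R carried 29 members, 3R carried 12, X carried 6, and 2L and 3L carried 2 each (BDGP6, equal to dm6, Ensembl annotation). Their annotated exons covered 398 to 1648 bp with a median of 645 bp, and 32 members had a single annotated transcript. Among the 1389 splice junctions that the deposited splicing table lists as changed, none was named for an Obp gene or lay inside one. That table holds changed junctions only, so how many Obp junctions were tested is unknown. Their absence from it therefore does not show that Obp splicing was unchanged.

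The libraries were deep. They held 78438192 to 118102006 reads assigned to genes in *ecd1* larvae and 74581798 to 107943245 in *w1118* larvae, and the values analysed were normalized counts, that is reads per gene divided by a size factor for each library. The *ecd* transcript itself, whose level does not check a temperature-sensitive allele, had 2111, 2218 and 2397 normalized counts in *ecd1* larvae against 2085, 1563 and 1565 in *w1118* larvae. *w1118* replicate 1 stood apart: the salivary glue gene *Sgs3*, which is switched on late in the final larval stage, had 124, 42.8 and 84.5 normalized counts in *ecd1* replicates 1 to 3 against 233485, 59.0 and 39.3 in *w1118* replicates 1 to 3. That library was outside the range of the other 5 in 50.4% of all tested genes and in 39.3% of the tested Obp genes (11 of 28). *ecd1* replicate 2 was outside the others in 44.4% of all tested genes and in the same number of Obp genes. The remaining libraries were outside in 7 to 10 of the 28 Obp genes. By this count *w1118* replicate 1 did not stand apart within the family. Results that rest on *w1118* replicate 1 are also given without it. The mean insert size also separated the genotypes, at 138.2 to 139.2 bases in *ecd1* libraries against 160.6 to 163.1 bases in *w1118* libraries, and its part in any result below was not tested. Because the samples are whole animals, fewer cells of a type and less RNA per cell cannot be told apart.

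Few Obp genes carried nearly all of the Obp RNA. The 10 members with the highest level per kilobase of exon, led by *Obp99b*, *Obp99c*, *Obp56a*, *Obp44a* and *Obp56d*, made up 96.7% to 98.5% of all Obp reads in *ecd1* libraries and 95.8% to 99.6% in *w1118* libraries. All Obp genes together took 0.182%, 0.0896% and 0.116% of the assigned reads in *ecd1* replicates 1 to 3 against 0.725%, 0.125% and 0.137% in *w1118* replicates 1 to 3. The high value of *w1118* replicate 1 was *Obp99b*: without that gene the shares were 0.0886% to 0.103% in *ecd1* larvae against 0.0774% to 0.0892% in *w1118* larvae, which overlapped, while the summed normalized counts were 79947 to 95763 in *ecd1* larvae against 68520 to 79402 in *w1118* larvae, which did not. Much of these sums was *Obp99c*, which averaged 37758 normalized counts in *ecd1* larvae and 21069 in *w1118* larvae. It took 36.5% to 45.3% of the remaining Obp reads in *ecd1* libraries against 28.6% to 29.0% in *w1118* libraries. The separate sums therefore do not show a rise of the family as a whole.

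**Figure D1:**
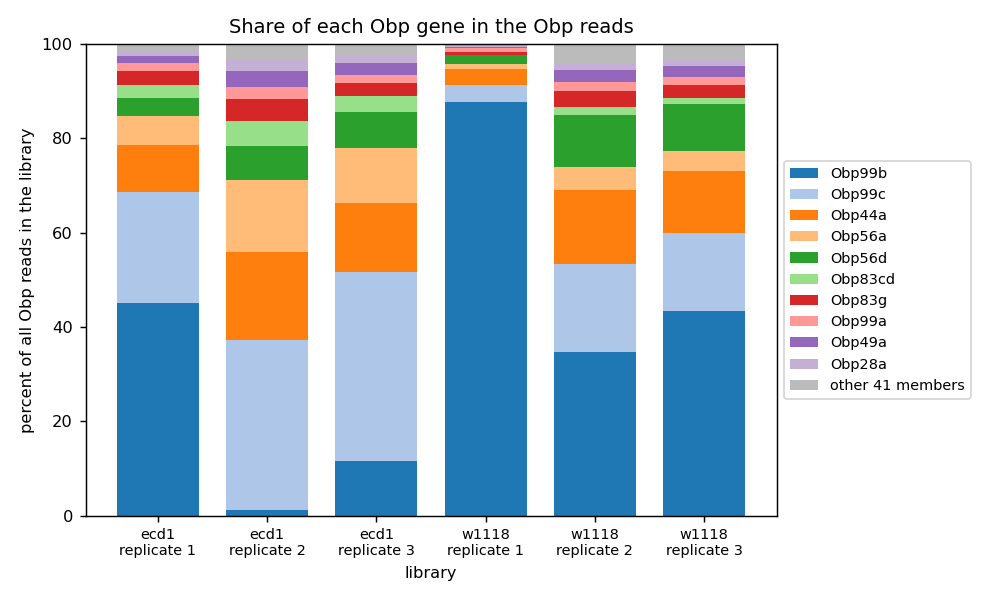
Percent of all Obp reads (y axis) taken by each of the 10 most abundant Obp genes and by the other 41 members together, in each of the 6 libraries (x axis, *ecd1* left). *Obp99b* took 45.1%, 1.09% and 11.7% of the Obp reads in *ecd1* replicates 1 to 3 and 87.7%, 34.6% and 43.4% in *w1118* replicates 1 to 3.

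Across the genotypes, the Obp genes did not move as 1 group. Of the 28 members with a mean of at least 10 normalized counts, 2 were higher and 5 were lower in *ecd1* larvae at an adjusted p below 0.05 (limma on log2 of the normalized count plus 1, Benjamini-Hochberg over 12930 genes), and 21 did not pass. Over all tested genes 16% were higher and 19.1% were lower by the same rule, 35.1% in all, against 25% of the Obp genes. The members that passed with a change of at least 2-fold, *Obp56i* and *Obp83b*, were lower in *ecd1* larvae, where 14.7% of all genes fell by that much and 5.1% rose by that much. Both had an *ecd1* mean under 10 and passed the filter only through *w1118* larvae, where they were higher, so their direction was set by the filter and is no support. *Obp50e* and *Obp57b* likewise passed only through *ecd1* larvae. No member rose at least 2-fold by limma, 3 did at an unadjusted p below 0.05 (*Obp83cd*, *Obp99d* and *Obp50e*), 1 did by edgeR (*Obp56a*), and 1 did by DESeq2 or with the replicate number as a block (*Obp99d*). The share of all genes was not taken for these counts, nor at an unadjusted p for the counts below. The median log2 fold change was −0.25 over the 28 Obp genes and 0.0075 over all tested genes. By structure, the Classic members held 6 of the 7 calls (13 tested, 1 higher and 5 lower, median −0.11) and the Minus-C members held the other (6 tested, median −0.028). Samples of the genotypes did not overlap for 14 of the 28 members, with *ecd1* higher in 6 and lower in 8, against 53.5% of all tested genes (26.7% higher and 26.9% lower). Leaving out *w1118* replicate 1 gave 4 higher and 5 lower Obp genes, against 18.8% and 21.2% of all tested genes. The counts moved with other libraries too: 4 genes were higher without *w1118* replicate 2, and 2 genes were lower without *ecd1* replicate 2 and 3 without *ecd1* replicate 3, *w1118* replicate 2 or *w1118* replicate 3. At least 2-fold, leaving out *w1118* replicate 1 gave 3 higher Obp genes, leaving out *w1118* replicate 2 gave 2, leaving out *ecd1* replicate 1 gave 1, and a single Obp gene was lower when *ecd1* replicate 2 was left out. The share of all genes at this fold was not taken for these fits.

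**Figure D2:**
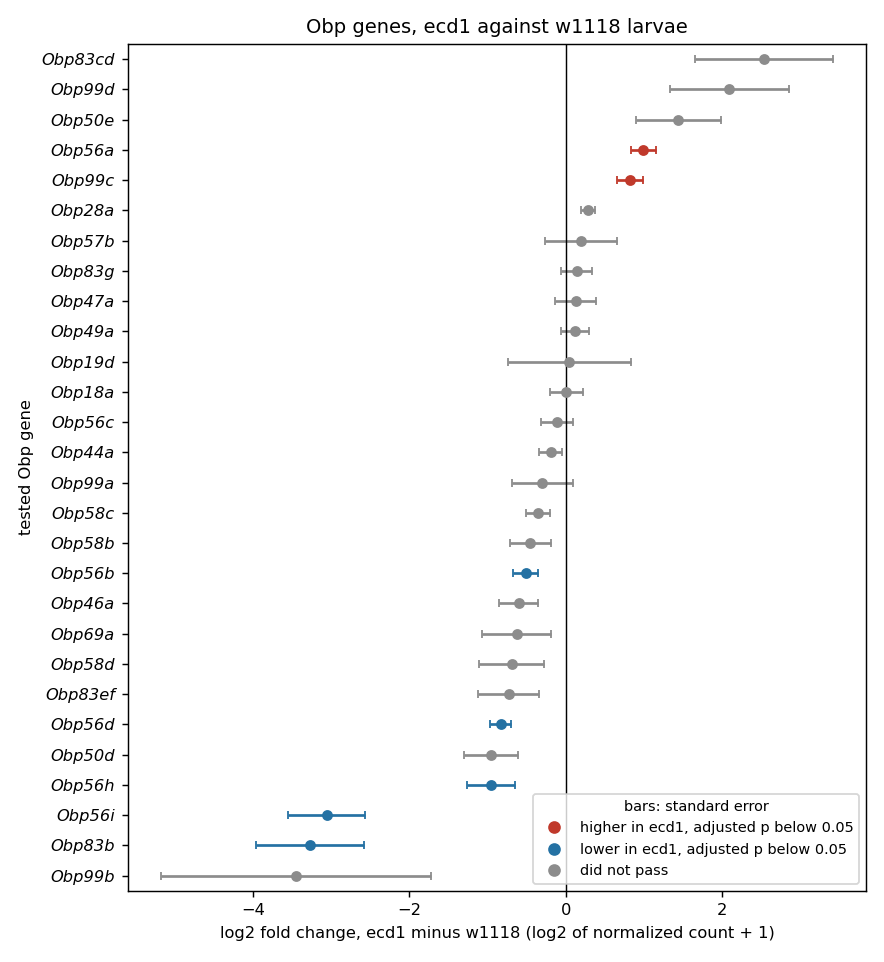
Log2 fold change of each of the 28 tested Obp genes (x axis, *ecd1* minus *w1118*, log2 of the normalized count plus 1), ordered from high to low, with bars for the standard error. *Obp56a* and *Obp99c* (red) were higher in *ecd1* larvae, 5 genes (blue) were lower, and the widest bar belongs to *Obp99b* at −3.45 with a standard error of 1.72.

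Among the Obp genes linked to hemolymph, fat body or glia (*Obp44a*, *Obp99a*, *Obp99b* and *Obp99c*, all Minus-C), 1 rose and none fell by limma, edgeR or DESeq2 or at an unadjusted p below 0.05. By limma 16% of all tested genes rose and 19.1% fell. *Obp99c* (3R, 29685736 to 29689311, minus strand), which encodes a Minus-C protein, had 40741, 29152 and 43382 normalized counts in *ecd1* larvae against 22720, 20599 and 19886 in *w1118* larvae. All *ecd1* samples lay above all *w1118* samples, and the log2 fold change of 0.82 (SE 0.16, limma adjusted p = 0.0106) corresponds to 1.77-fold. Per kilobase of exon it averaged 56440 ± 11314 in *ecd1* larvae and 31493 ± 2203 in *w1118* larvae (SD, n = 3 each).

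*Obp99b* (3R, 29716254 to 29716896, minus strand), a Minus-C protein gene, was the most variable of the abundant members. It had 78282, 878 and 12642 normalized counts in *ecd1* replicates 1 to 3 against 565754, 38236 and 52524 in *w1118* replicates 1 to 3. The genotypes overlapped, since *ecd1* replicate 1 was above *w1118* replicates 2 and 3, and the *ecd1* samples alone spread 89.1-fold and the *w1118* samples 14.8-fold. The log2 fold change of −3.45 had a standard error of 1.72 and did not pass (limma adjusted p = 0.162), and it was −2.23 without *w1118* replicate 1 (adjusted p = 0.341). DESeq2 gave this gene no adjusted p. With the replicate number as a block in the limma fit, the same fold change passed (adjusted p = 0.0131).

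All 6 larval fat body genes examined were, like *Obp99b*, highest in replicate 1 and lowest in replicate 2 among the *ecd1* libraries. *Lsp1alpha*, a larval serum protein gene, had 610164, 2429 and 82842 normalized counts in *ecd1* replicates 1 to 3 against 2123560, 816311 and 804431 in *w1118* replicates 1 to 3. *Lsp1alpha* was not called and was chosen for mention after its values were seen. The 6 fat body genes (3 *Lsp1* genes, *Lsp2*, *Fbp1* and *Fbp2*) summed to 381758 to 5237743 normalized counts in *ecd1* larvae and 6022125 to 8913344 in *w1118* larvae, and none was at 0. None of the 6 passed by limma, where 35.1% of all tested genes passed, and none by edgeR or DESeq2. Of the 6, 2 were lower at an unadjusted p below 0.05, and the median log2 fold change was −3.23. Their part in the level of *Obp99b* was not tested.

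**Figure D3:**
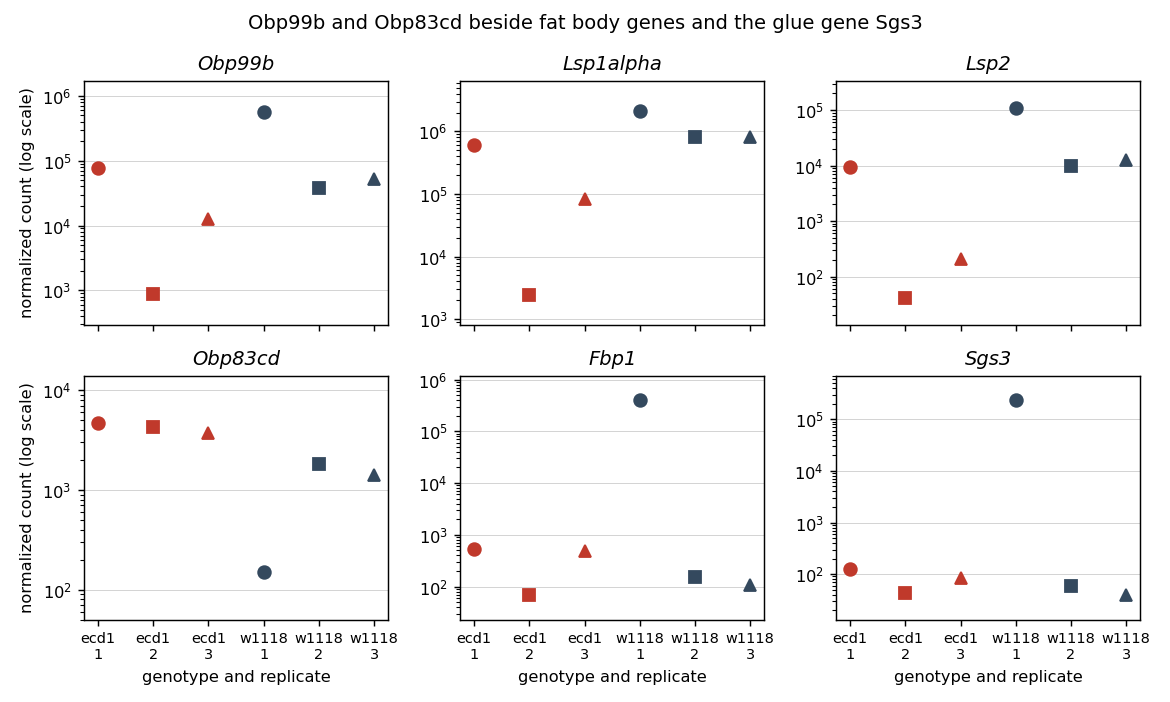
Normalized counts (y axis, log scale) of *Obp99b* and *Obp83cd* beside the fat body genes *Lsp1alpha*, *Lsp2* and *Fbp1* and the glue gene *Sgs3* in each library (x axis, *ecd1* left, replicates 1 to 3). *w1118* replicate 1 held the highest value of *Obp99b*, at 565754, of the fat body genes and of *Sgs3*, and the lowest value of *Obp83cd*, at 150.

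The other abundant members of this role did not pass. *Obp44a*, whose protein is secreted by glia of the nervous system, had 17234, 15071 and 15871 normalized counts in *ecd1* larvae against 22389, 17274 and 15960 in *w1118* larvae. The ranges overlapped, and the log2 fold change was −0.19 (SE 0.14, limma adjusted p = 0.324). *Obp99a* had 3144, 1988 and 2012 normalized counts in *ecd1* larvae against 5257, 2162 and 2055 in *w1118* larvae. Replicate 1 was the highest of either genotype, as for *Obp99b*, and the log2 fold change of −0.30 (SE 0.38, limma adjusted p = 0.571) became 0.14 without *w1118* replicate 1. Beside these genes, 3 of the 6 hemocyte markers rose (*Ppn* by 0.73, *NimC1* by 0.59 and *Pxn* by 0.59 on the log2 scale) and *eater* fell by 1.07 (without *w1118* replicate 1, −0.73 with an adjusted p of 0.0539), with the 6 summing to 69149 to 87055 normalized counts in *ecd1* larvae and 54393 to 61103 in *w1118* larvae. Over all tested genes 16% rose and 19.1% fell by limma. Of the 6 glial markers *nrv2* alone passed by limma and edgeR and fell by 0.50, while 3 were lower by DESeq2 and at an unadjusted p below 0.05, and 2 were lower and 1 higher without *w1118* replicate 1. They summed to 41102 to 45169 in *ecd1* larvae and 47508 to 66471 in *w1118* larvae. Their part in the Obp levels was not tested.

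*Obp99d*, the Minus-C neighbour that lies 1249 bp from *Obp99b* on the opposite strand, differed from it in pattern. It had 108, 190 and 187 normalized counts in *ecd1* larvae against 9.52, 81.4 and 57.4 in *w1118* larvae. Every *ecd1* sample was above every *w1118* sample, and *w1118* replicate 1, the highest library for *Obp99b*, was the lowest for *Obp99d*. The log2 fold change of 2.09 (SE 0.76) did not pass (limma adjusted p = 0.0714), while it was 1.19 and passed without *w1118* replicate 1 (adjusted p = 0.0360), passed without *w1118* replicate 2 (adjusted p = 0.0471) and passed with the replicate block (adjusted p = 0.0204). With all 6 libraries the gene passed by DESeq2 (log2 fold change 1.71, adjusted p = 0.0249) and did not pass by edgeR (adjusted p = 0.0744). *Obp99d* was chosen for mention after its values were seen, as were *Obp8a*, *Obp19d*, *Obp46a*, *Obp50a*, *Obp50d*, *Obp50e*, *Obp56b*, *Obp56g*, *Obp56h*, *Obp56c*, *Obp57a*, *Obp57b*, *Obp58c*, *Obp69a*, *Obp83a*, *Obp83ef* and *Obp85a*.

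Of the 9 *Obp56* genes of 2R, 6 were tested and 5 were called, where 35.1% of all tested genes were called. Of these calls, *Obp56i* passed the filter only through its *w1118* level and is no support. The calls of *Obp56b* and *Obp56h* were near the threshold (limma adjusted p = 0.0485 and 0.0479). The locus of *Obp56a* to *Obp56f* spans 16.254 kb (2R, 19697723 to 19713976), and its 4 tested members went different ways: *Obp56a* was higher, *Obp56b* and *Obp56d* were lower, and *Obp56c* did not pass. *Obp56a*, a Classic member, had 10918, 12473 and 12635 normalized counts in *ecd1* larvae against 7559, 5555 and 5192 in *w1118* larvae. The groups were well apart, and the log2 fold change was 0.99 (SE 0.16, limma adjusted p = 0.00602), or 1.99-fold. It was 1.16 without *w1118* replicate 1, which was the highest of the *w1118* samples.

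*Obp56d*, a Classic member also found in adult antennae, had 6592, 5780 and 8228 normalized counts in *ecd1* larvae against 11930, 12162 and 12189 in *w1118* larvae. The *w1118* samples differed by no more than 1.02-fold among themselves and all lay above the *ecd1* samples. The log2 fold change was −0.83 (SE 0.14, limma adjusted p = 0.00641), so *Obp56d* was 1.78-fold lower in *ecd1* larvae. *Obp56b* averaged 467 ± 13.3 normalized counts in *ecd1* larvae and 674 ± 116 in *w1118* larvae (SD, n = 3 each), with a log2 fold change of −0.51 (limma adjusted p = 0.0485). That call was near the threshold and was lost without any 1 of the libraries except *w1118* replicate 1, with adjusted p-values from 0.0969 to 0.144.

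*Obp56h* and *Obp56i* lie apart from that locus on 2R and were also lower. *Obp56h*, which in adult males is known for an influence on cuticular hydrocarbons and mating, had 595, 769 and 728 normalized counts in *ecd1* larvae against 830, 1867 and 1576 in *w1118* larvae. The groups did not overlap, but *w1118* replicate 1 was nearer to the *ecd1* samples than to the other *w1118* samples. The log2 fold change was −0.96 (SE 0.30, limma adjusted p = 0.0479), it was −1.31 without *w1118* replicate 1 (adjusted p = 0.00563), and the call was lost without each of the other 5 libraries in turn (adjusted p = 0.0994 to 0.132).

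*Obp56i*, a member of the set of Obps detected in the male reproductive tract, was 8.31-fold lower in *ecd1* larvae. It had 3.77, 3.82 and 13.1 normalized counts in *ecd1* larvae against 49.99, 67.2 and 52.5 in *w1118* larvae, which were 4, 5 and 11 reads against 42, 57 and 64 reads. Every *ecd1* sample lay far below every *w1118* sample, and the log2 fold change was −3.06 (SE 0.49, limma adjusted p = 0.00629), below 0 and past the threshold without any 1 of the 6 libraries. Those fits kept the genes of the same filter, so they are no support for that direction. Since the *ecd1* mean of 6.89 was under 10, the gene passed the filter through its *w1118* level, and at so low an *ecd1* level it could be tested only because the *w1118* level was higher. Of the other 6 seminal fluid members none reached a mean of 10: *Obp56g*, which is needed for the mating plug, had 0 reads in the 3 *ecd1* libraries, where 3 reads would be worth 2.29 to 3.57 normalized counts, against 2, 1 and 1 reads in *w1118* libraries. Markers of the testis germ line were also lower: 11 of 13 tested markers fell, where 19.1% of all tested genes did, among them *dj* by 3.02, *ProtA* by 2.54 and *Mst98Cb* by 2.33 on the log2 scale, and the 14 markers summed to 2117 to 3714 normalized counts in *ecd1* larvae and 7693 to 11324 in *w1118* larvae. Whether males or male tissue were fewer was not tested, nor was the part of either in the level of *Obp56i*.

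**Figure D4:**
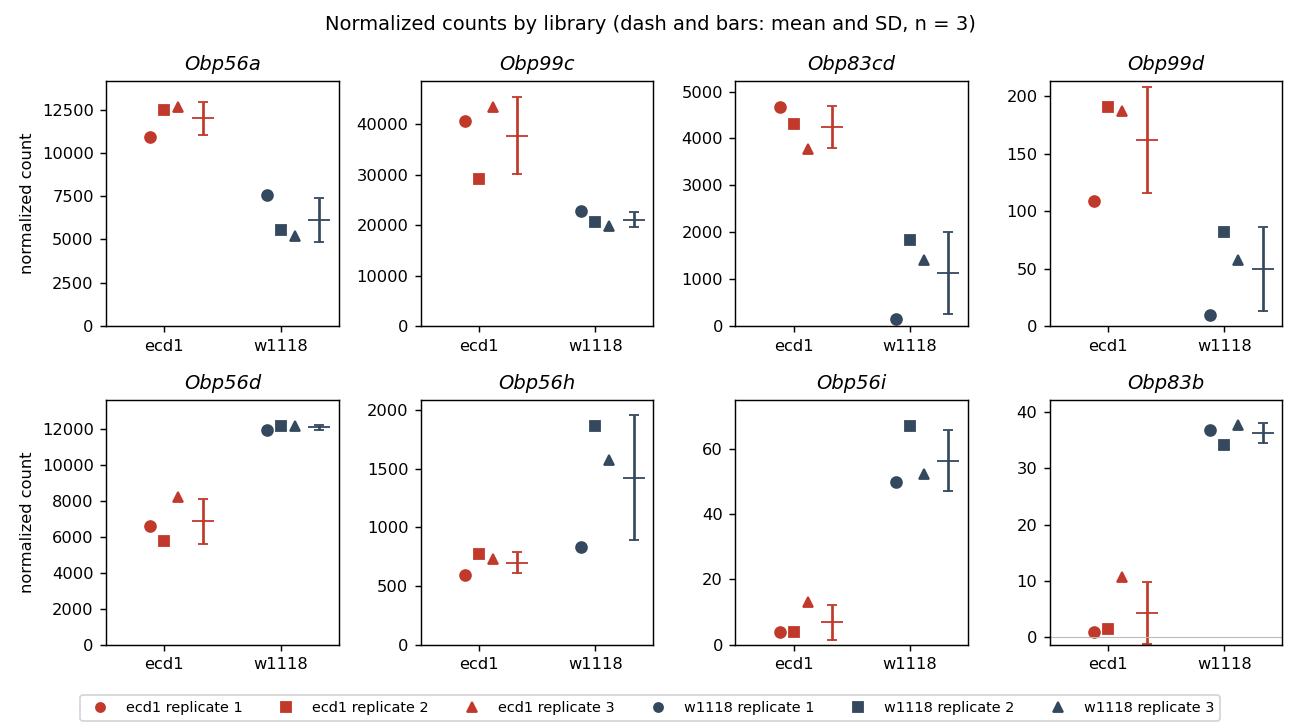
Normalized counts (y axis, linear) of 8 Obp genes in the 3 *ecd1* libraries (red, left) and the 3 *w1118* libraries (dark, right), with the mean and SD beside the points. *Obp56a*, *Obp99c*, *Obp83cd* and *Obp99d* were higher and *Obp56d*, *Obp56h*, *Obp56i* and *Obp83b* were lower in every *ecd1* library than in any *w1118* library, and *Obp83cd* and *Obp99d* owed much of their SD to *w1118* replicate 1, at 150 and 9.52.

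Of the 8 members known from the adult antenna, 4 were tested and 2 fell, *Obp56d* and *Obp83b*, where 19.1% of all tested genes fell. *Obp83b* was tested only through its *w1118* level, so its direction was set by the filter. *Obp83b* (3R, 5976177 to 5976817, minus strand) and its neighbour *Obp83a*, 931 bp away, encode the closely related carriers of pheromone-sensing hairs that are also called OS-E and OS-F. *Obp83b* had 0.943, 1.53 and 10.7 normalized counts in *ecd1* larvae against 36.9, 34.2 and 37.7 in *w1118* larvae, or 1, 2 and 9 reads against 31, 29 and 46 reads. The *w1118* samples were tight and the *ecd1* samples spread 11.4-fold, with replicate 3 the highest. The log2 fold change was −3.27 (SE 0.69, limma adjusted p = 0.0130), and it was −2.96 and no longer passed without *ecd1* replicate 2 (adjusted p = 0.0519). With an *ecd1* mean of 4.39 this gene, too, passed the filter through its *w1118* level.

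*Obp83a* was below the filter, at 0.943, 0 and 3.57 normalized counts in *ecd1* larvae against 8.33, 4.72 and 10.7 in *w1118* larvae. All *ecd1* samples were below all *w1118* samples on a total of 4 reads in *ecd1* larvae against 24 reads in *w1118* larvae. When genes with a mean of at least 1 were tested, *Obp83a* passed at a log2 fold change of −2.04 (limma adjusted p = 0.0474). *Obp28a*, an abundant Obp of the fly antenna, had 1926, 1913 and 1825 normalized counts in *ecd1* larvae against 1477, 1555 and 1612 in *w1118* larvae. The samples did not overlap and were tight in both groups, yet the log2 fold change of 0.29 (SE 0.09) narrowly missed the threshold (limma adjusted p = 0.0505). The fourth tested antennal gene, *Obp69a*, a carrier linked to the male pheromone cis-vaccenyl acetate, averaged 11.6 ± 3.38 normalized counts in *ecd1* larvae and 19.1 ± 7.65 in *w1118* larvae and overlapped.

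Both Dimer genes share a locus with *Obp83g* (3R, 6108134 to 6112302), and neither passed by limma, edgeR or DESeq2. *Obp83cd* had 4665, 4305 and 3770 normalized counts in *ecd1* larvae against 150, 1832 and 1411 in *w1118* larvae. Every *ecd1* sample was more than any *w1118* sample, and *w1118* replicate 1 was the lowest by 9.41-fold. The log2 fold change was 2.53 (SE 0.88) and did not pass (limma adjusted p = 0.0638), but without *w1118* replicate 1 it was 1.40 and passed (adjusted p = 0.00486), as it did without *w1118* replicate 2 (3.20, adjusted p = 0.0440). *Obp83ef*, whose exons share 92 bp with those of *Obp83cd* on the opposite strand, averaged 242 ± 136 normalized counts in *ecd1* larvae and 364 ± 45.3 in *w1118* larvae and did not pass, except without *ecd1* replicate 1 (adjusted p = 0.0321). *Obp83g*, the Minus-C gene at the end of the locus, had 5027, 3745 and 2848 normalized counts in *ecd1* larvae against 3244, 3665 and 3381 in *w1118* larvae. The *ecd1* samples enclosed the *w1118* samples, and the log2 fold change of 0.14 (SE 0.20, limma adjusted p = 0.616) turned to −0.07 without *ecd1* replicate 1.

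None of the 7 tested Plus-C genes passed by limma, where 35.1% of all tested genes passed, and none by edgeR or DESeq2. Their median log2 fold change was −0.45. At an unadjusted p below 0.05, where no share of all genes was taken, 1 was higher (*Obp50e*) and 2 were lower (*Obp46a* and *Obp50d*). The most abundant, *Obp49a*, acts in taste hairs, where it binds bitter compounds and dampens the response to sugar. It had 2342, 2879 and 2555 normalized counts in *ecd1* larvae against 1813, 2698 and 2747 in *w1118* larvae. The ranges overlapped, and the log2 fold change of 0.12 (SE 0.18, limma adjusted p = 0.632) became −0.08 without *w1118* replicate 1. In the *Obp50* locus the neighbours *Obp50d* and *Obp50e* were not called. *Obp50e* had 17.9, 22.9 and 17.8 normalized counts in *ecd1* larvae against 2.38, 10.6 and 9.84 in *w1118* larvae (log2 fold change 1.44, limma adjusted p = 0.0819), and *Obp50d* averaged 15.4 ± 4.76 in *ecd1* larvae and 30.2 ± 5.57 in *w1118* larvae (log2 fold change −0.95, limma adjusted p = 0.0714). Neither gene overlapped between genotypes, *Obp50e* was tested only through its *ecd1* level, since its *w1118* mean was 7.61, and *Obp50d* passed in the limma fit without a variance trend (adjusted p = 0.0349), as did *Obp46a* (adjusted p = 0.0160). *Obp50a*, under the filter with 3 reads in *ecd1* libraries together and 31 in *w1118* libraries, had a log2 fold change of −2.65 when genes with a mean of at least 1 were tested (limma adjusted p = 0.0105). With an *ecd1* mean of 0.824 it passed that filter only through its *w1118* level.

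The levels of the tested Obp genes covered a wide range, which the plot of counts per kilobase shows. Per kilobase, *Obp99b* averaged 51517 ± 70219 in *ecd1* larvae and 368414 ± 505931 in *w1118* larvae, with replicate 1 far the highest of each (SD, n = 3 each). *Obp56a* and *Obp44a* changed places between the genotypes: *Obp56a* averaged 21953 ± 1733 per kilobase in *ecd1* larvae and 11155 ± 2330 in *w1118* larvae, and *Obp44a* averaged 14924 ± 1017 in *ecd1* larvae and 17232 ± 3157 in *w1118* larvae. The samples of these genes did not overlap within either genotype. *Obp57b*, at the low end of the tested members, averaged 13.2 ± 3.95 per kilobase in *ecd1* larvae and 11.7 ± 5.55 in *w1118* larvae. Among genes the filter kept, the SD was small for *Obp28a* and *Obp58c* in *ecd1* larvae, with a largest to smallest ratio of 1.06 and 1.04, and large for *Obp19d*, which spread 5.10-fold in *ecd1* larvae and 5.15-fold in *w1118* larvae, with replicate 1 the lowest of either genotype.

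**Figure D5:**
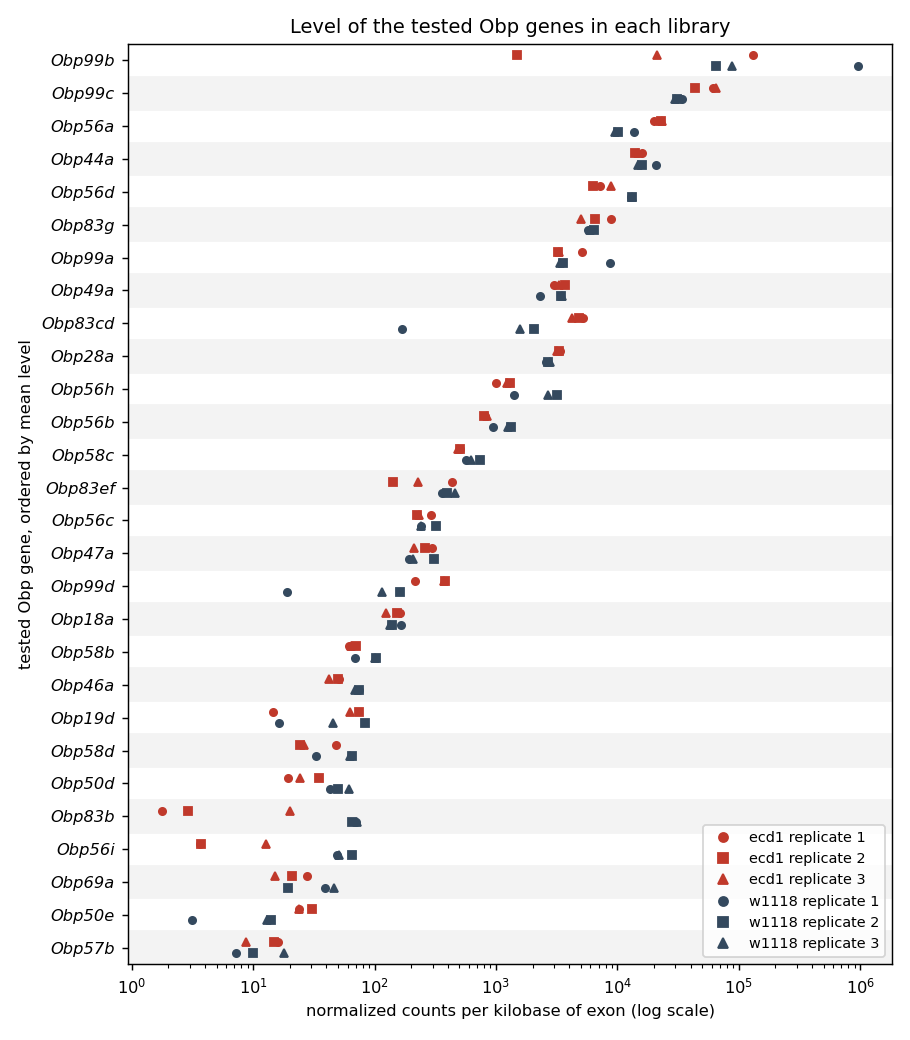
Normalized counts per kilobase of exon (x axis, log scale) of the 28 tested Obp genes in each library, ordered by their mean, with *ecd1* (red) drawn above *w1118* (dark) for each gene. Levels ran over several orders of magnitude, the *Obp99b* points were the most scattered, and *w1118* replicate 1 was far left for *Obp83cd*, *Obp99d* and *Obp50e*.

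The other 23 Obp genes were not tested. Of these, 18 had reads, with *Obp85a* the highest at a mean of 8.20 normalized counts, and together they gave 37 to 60 reads in an *ecd1* library against 35 to 94 reads in a *w1118* library. *Obp8a*, with 1, 11 and 3 reads in *ecd1* libraries against 3, 0 and 2 in *w1118* libraries, and *Obp57a*, with 0 reads in *ecd1* libraries against 1, 0 and 2 in *w1118* libraries, were too low to compare. *Obp19b*, *Obp47b*, *Obp50b*, *Obp50c* and *Obp57d* had no read in any library. All exon bases of 4 of these 5 are shared with another gene: *Obp50b* and *Obp50c* share 1648 bp with each other on the same strand, *Obp57d* shares 1488 bp with *Cpr57A* on the same strand, and *Obp47b* shares 611 bp with *CG7741* on the opposite strand. The reads carried no strand (the deposited share on 1 strand was near 0.50), and no source used here states how reads in shared exons were assigned, so a value of 0 for these 4 genes does not show that they were silent.

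The receptors that Obps are thought to serve gave a mixed picture. Of the odorant receptors 3 of 9 tested genes rose and 1 fell by limma (2 fell by DESeq2 or without *w1118* replicate 1), where 16% of all tested genes rose and 19.1% fell. The receptors included the co-receptor gene *Orco*, with 84.9, 76.4 and 78.5 normalized counts in *ecd1* larvae against 16.7, 29.5 and 34.4 in *w1118* larvae (log2 fold change 1.597, limma adjusted p = 0.0115). Of the gustatory receptors 3 of 12 rose, by edgeR and DESeq2 too, and none fell by any of the 3 tools or at an unadjusted p below 0.05 (*Gr94a* by 1.79, *Gr39a* by 1.53 and *Gr98a* by 1.48 on the log2 scale). Of the ionotropic receptors 4 of 19 rose and 2 fell, with *Ir93a*, part of the temperature and humidity receptors, and *Ir76a* higher by 2.98 and 2.94 on the log2 scale. Among 25 other carriers of the chemosensory system, 7 were tested and *CheB42c* was the single call, lower by 1.51. The median log2 fold changes were 0.09 for odorant, −0.0048 for gustatory and −0.0017 for ionotropic receptors and −0.17 for the other carriers, beside 0.0075 over all tested genes. The summed normalized counts of gustatory receptors were 1236 to 1298 in *ecd1* larvae against 606 to 760 in *w1118* larvae. For ionotropic receptors they were 1601 to 1681 against 902 to 1227. The sums overlapped for odorant receptors (490 to 534 against 359 to 538) and for the other carriers (15369 to 17072 against 14481 to 15460). None of the 5 markers of sensory organ support cells passed by limma, 1 was higher at an unadjusted p below 0.05 and by edgeR and DESeq2, and their sums were 4052 to 5378 in *ecd1* larvae and 4585 to 6702 in *w1118* larvae. Neuron markers summed to 14331 to 16803 in *ecd1* larvae and 15727 to 17309 in *w1118* larvae, and of 5 only *brp* passed and rose by 0.38. Of 13 early ecdysone response genes none passed by limma (median −0.32), while 2 were lower at an unadjusted p below 0.05, none passed by edgeR and 3 were lower by DESeq2. The list summed to 18232 to 21994 normalized counts in *ecd1* larvae, against 48711 in *w1118* replicate 1 and 23370 and 23150 in the other *w1118* libraries, and without that replicate 1 gene was higher and none was lower.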

How the data were processed

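Total RNA of 8 whole larvae per sample was sequenced as pairs of 100 bp reads. Alignment by the authors used TopHat2 2.0.10 and the dm6 genome, featureCounts 1.6.4 summed reads over each gene, and a DESeq2 size factor per library scaled the sums. The DESeq2 version and the strand and shared-exon settings are not given in the sources used here. The signal values analysed are these deposited normalized counts. Every value was a whole multiple of 1 read (100% within 0.05 reads), so reads were recovered. Deposited tables also gave the insert size, the strand fraction of the reads and the splicing score (deltaPSI, LeafCutter), and the score served only to look for Obp junctions. The deposited fold changes and p-values of the authors' own comparison, and their enrichment tables, were not used.

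Genes with a mean of at least 10 normalized counts were tested on log2(normalized count + 1) with limma 3.58.1 (trended variance, genotype as the single term, R 4.3.3) and Benjamini-Hochberg adjustment over 12930 genes. A fold change on this scale understates that of low genes. With 3 samples per group an exact permutation test cannot go below p = 0.1, so none is given. The paper describes biological triplicates, but the labels do not say what makes the replicates separate. The p-values therefore set each difference only against the spread between these samples. Per-kilobase levels used exon lengths of the Ensembl annotation, in which all 51 genes matched. Floors of 3 reads cover counting error only. The code was tested on simulated data. Alternatives were other pseudocounts, filters and scaling, limma without the trend, edgeR 4.0.16 and DESeq2 1.42.0 on recovered reads (2244 and 2547 genes higher, 2397 and 2936 lower), a replicate block and leaving out each library. Same-numbered samples deviated together (r = 0.209, 0.232 and 0.225, against −0.274 to 0.0541 for the others), although the labels do not say what the numbers mark. The main fit did not pair the samples, and pairing by number entered only through the replicate block.

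Members and gene lists were chosen with earlier results of these data known. Values of every sample were given for members that passed with at least a 2-fold change, for the 10 highest per kilobase and for *Sgs3*. Outside the family, up to 3 called genes of each list with a mean of at least 50 were named. Apart from *Orco*, these were given by their log2 fold change alone. *Lsp1alpha*, which was not called, was added with its values of every sample. Of 10 salivary glue genes none passed by limma (none at an unadjusted p below 0.05, 1 lower by edgeR, none by DESeq2), but without *w1118* replicate 1, 4 were lower (*ng1*, *ng2*, *ng3* and *Sgs1*, adjusted p = 0.00647 to 0.0302). Of 8 midgut proteases 1 rose and 3 fell (log2 fold changes −2.15 for *thetaTry*, −1.88 for *Jon99Ciii* and 1.40 for *Jon25Bi*), where 16% of all tested genes rose and 19.1% fell.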

Additional observations from a re-analysis of the deposited data

How the results depend on the processing

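The number of Obp genes higher in *ecd1* larvae was 2 by limma and 4 by DESeq2, and it ran from 2 to 4 when single libraries were left out. Over all tested genes it was 2064 by limma and 2547 by DESeq2, and 891 to 2437 without single libraries. The number of Obp genes lower was 5 and became 2 with a mean of at least 50, with a range of 2 to 5 without single libraries. Over all tested genes it was 2474, then 1974 with a mean of at least 50, and 1475 to 2741 without single libraries. Among the Obp genes, higher by at least 2-fold was 0, and 1 with TMM scaling, edgeR, DESeq2 or the replicate block, with a range of 0 to 3 without single libraries. Lower by at least 2-fold was 2, and 4 with a mean of at least 1, 5 with no filter and 0 with a mean of at least 50, with a range of 1 to 3 without single libraries. The last filter removes *Obp56i* and *Obp83b*, and the lower ones admit *Obp50a*, *Obp83a* and *Obp56g*. *Obp50a* and *Obp56g* had 3 and 0 reads in *ecd1* libraries together against 31 and 4 in *w1118* libraries. Both entered only through their *w1118* level and are no support. *Obp83a* rested on 4 reads against 24. The share of all genes at 2-fold was taken for the main fit alone, at 5.1% higher and 14.7% lower. The median log2 fold change of −0.25 became −0.051 with a mean of at least 50 and ran from −0.33 to −0.22 without single libraries.

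*Obp56a*, *Obp56d* and *Obp99c* kept their direction and their call under all 16 alternatives, and *Obp56i* under the 15 that tested it. *Obp56i* met the main filter only through its *w1118* level, so its kept call is no support for its direction. *Obp56b* lost its call in 10 of 16 and *Obp56h* in 7, while *Obp28a* gained one in 4. Without the variance trend, *Obp46a* and *Obp50d* gained a call (adjusted p = 0.0160 and 0.0349 by limma). Leaving out single libraries turned the sign of 8 tested members, none of them called. *Obp49a* ran from −0.076 (without *w1118* replicate 1) to 0.22, *Obp83g* from −0.069 (without *ecd1* replicate 1) to 0.34, and *Obp99a* from −0.54 to 0.14 (without *w1118* replicate 1), beside *Obp18a*, *Obp19d*, *Obp47a*, *Obp56c* and *Obp57b*, and the cause was not tested. Over all genes, leaving out *ecd1* replicate 2 left 891 higher and 1475 lower, against 2064 and 2474 with all libraries. Pairing by replicate number changed the calls of *Obp99b* and *Obp99d* and, among the members described, no other.

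Depth limits the 23 genes below the filter and the low members *Obp56i*, *Obp83b* and *Obp50e*, none of which had more than 64 reads in a library.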
